A study of Saccharomyces cerevisiae with 16 samples.

Results

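The genes described here encode 44 proteins of the yeast nucleolus, the compartment in which ribosomes are assembled. They were chosen by name as a list of ribosome biogenesis factors (the UTP, NOP, NOC, IMP and RPF genes and their partners) and of the core proteins of the box C/D and box H/ACA small nucleolar ribonucleoproteins (snoRNPs). The choice was made with earlier results of these data known. All 44 were found among the 5836 coding transcripts, here called ORF-T rows, of a table of 12670 transcript rows. The study compared Saccharomyces cerevisiae strains of the BY4741 background that lack RRP6, RTR1 or both. Rrp6 is a nuclear exonuclease of the RNA exosome, and Rtr1 is a phosphatase of the C-terminal domain of RNA polymerase II. The 11 libraries used were 4 from WT cells (replicates 1 to 4), 3 from rrp6Δ cells (replicates 1, 3 and 4) and 4 from rtr1Δ rrp6Δ cells (replicates 1 to 4). RRP6 is therefore deleted in both mutant groups, and 5 further samples out of 16, including every rtr1Δ sample, were not analysed here. The double deletion strain was built from the rrp6Δ strain of the knockout collection with a kanamycin cassette at RTR1. Cultures were harvested at an OD600 of 0.8. All strains of a replicate were grown on the same day and the replicates on different days, so the replicate number stands for a growth day. The sample titles number the replicates as RNA-Seq preps, with the same number as the replicate. Whether RNA extraction or library preparation also differed between these days is not given in the sources used here. Growth day and preparation therefore cannot be told apart, and growth day below is a name for the replicate number.

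Ribosome production starts with transcription of a long pre-rRNA by RNA polymerase I. Box C/D snoRNPs guide methylation of the pre-rRNA and box H/ACA snoRNPs guide pseudouridine formation. The U3 box C/D snoRNP and a large set of U3-associated proteins (UTPs) form the small-subunit processome, which folds and cuts the 18S part of the pre-rRNA. The UTP-A and UTP-B complexes bind its 5′ end early, and the Mpp10 complex (Mpp10, Imp3 and Imp4) joins with U3. The PeBoW and NOC complexes, Brix-domain proteins and DEAD-box helicases act on precursors of the large subunit or of both subunits. In yeast the genes for these proteins are known as a regulon that follows growth rate and nutrients, and many have a PAC element and an RRPE element in their promoters. Dot6 and Tod6 are known to bind PAC, and Stb3 to bind RRPE.

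The libraries held 28765694 to 38578463 counts, of which ORF-T rows took 78.1% to 81.4% in WT cells and 72.1% to 75.0% in both mutant groups. The members had 977 to 40664 counts in every library, so counting error was small beside the spread between libraries. RRP6 had 3605 to 5503 counts per WT library, 10 to 13 per rrp6Δ library and 8 to 22 per rtr1Δ rrp6Δ library. RTR1 had 548 to 762, 417 to 575 and 35 to 56 counts in the same order. These counts matched every library's label. Genes specific to a cells took 0.179% to 0.247% of ORF-T counts and genes specific to alpha cells 0.00355% to 0.00511%, and BY4741 is a MATa strain. Bulk RNA cannot tell a change in each cell from a change in the mix of cells.

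Short promoter sequences were shared by the members although they were listed by name. The PAC core was searched as GATGAG on both strands (CTCATC on the other strand) and the RRPE core as AAAATTTT, which reads the same on both strands. The 2 cores cannot overlap each other, but adjacent PAC copies can share a base. In the 250 bases before the start codon of assembly R64, 40 of 44 members (90.9%) had a PAC core, 37 (84.1%) an RRPE core and 34 (77.3%) both. Of the windows of 6001 protein-coding genes 17% had a PAC core, 8.65% an RRPE core and 4.08% both. Only UTP22 among the 44 had neither. The 61 PAC matches lay 57 to 229 bases before the start codon with a median of 120, and the 46 RRPE matches 33 to 225 bases before it with a median of 139. The following windows are shown for 10 members on which the results below turn, read 5′ to 3′ toward the gene, with the cores in capitals.
NOP56: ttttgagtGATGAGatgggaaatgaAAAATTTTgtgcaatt
CBF5: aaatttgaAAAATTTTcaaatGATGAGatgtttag
GAR1: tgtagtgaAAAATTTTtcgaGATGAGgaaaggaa
RPF1: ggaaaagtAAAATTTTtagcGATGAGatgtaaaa
NSR1: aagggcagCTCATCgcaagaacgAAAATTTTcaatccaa
UTP9: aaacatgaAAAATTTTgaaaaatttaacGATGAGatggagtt
MPP10: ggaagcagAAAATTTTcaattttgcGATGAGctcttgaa
IMP3: gatataagCTCATCgcaacaaa
SSF1: cgaagaagCTCATCTCATCgcg
UTP4: ccaaatgaAAAATTTTcagactga
These windows lie at chrXII:545962-546002 (NOP56, plus strand), chrXII:505982-506016 (CBF5, plus), chrVIII:283410-283443 (GAR1, minus), chrVIII:281376-281409 (RPF1, plus), chrVII:807813-807851 (NSR1, minus), chrVIII:491794-491835 (UTP9, plus), chrX:438765-438803 (MPP10, plus), chrVIII:393444-393465 (IMP3, plus), chrVIII:229225-229246 (SSF1, plus) and chrIV:1116781-1116804 (UTP4, minus). In 7 of these 10 windows a PAC and an RRPE core stand within the same stretch of 34 to 42 bases. IMP3 and SSF1 had no RRPE core in their 250 bases, and SSF1 had 2 PAC copies that share a base. UTP4 had an RRPE core and no PAC core. A match of these letters is a description of the sequence and no measure of factor binding.

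**Figure D1:**
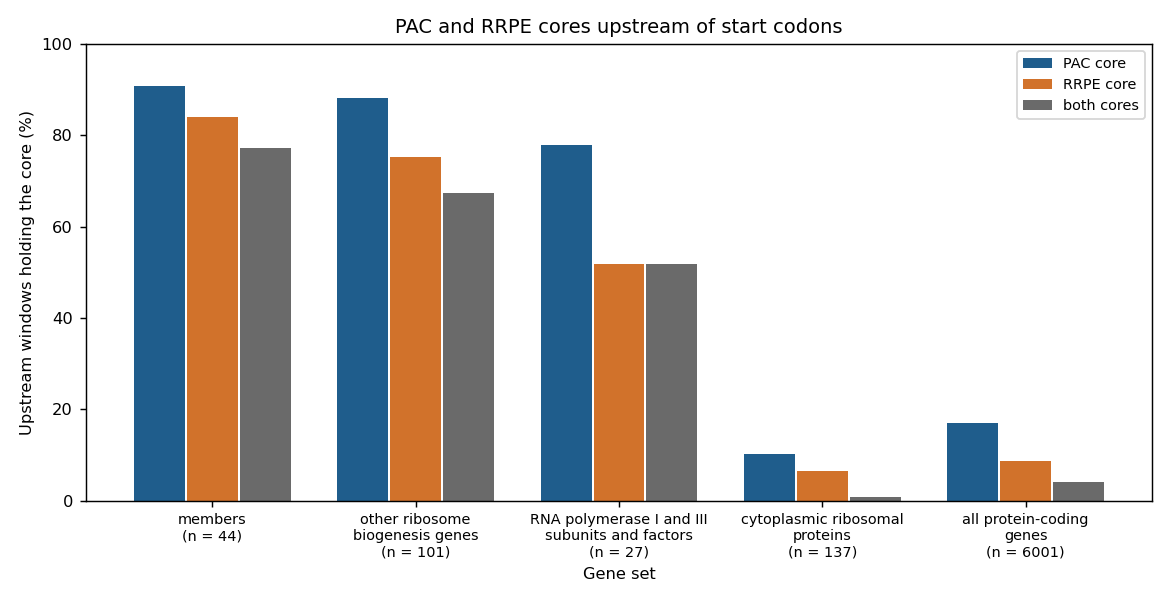
Share of upstream windows (%, vertical axis) that hold the PAC core, the RRPE core or both, for 5 gene sets on the horizontal axis. The bars of the members (90.9%, 84.1% and 77.3%) and of 101 other ribosome biogenesis genes (88.1%, 75.2% and 67.3%) stand far above those of all 6001 protein-coding genes and of 137 cytoplasmic ribosomal protein genes (10.2%, 6.57% and 0.73%).

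The shares in other lists of the ribosome pathway are given for comparison, with no test. Of 27 genes for subunits and factors of RNA polymerases I and III, which transcribe rRNA and tRNA, 77.8% had a PAC core and 51.9% both. Of 137 genes for cytoplasmic ribosomal proteins, which are known to follow other promoter elements in yeast, 10.2% had a PAC core and 1 had both. Of 10 snoRNP assembly factors 40% had a PAC core and 0 both, and of 11 regulators of the regulon 18.2% had a PAC core and 0 both.

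The level of the members in WT cells spanned a wide range. Expressed as CPM, counts scaled to a common library size of 1000000, per kilobase of coding length, with TMM scaling over all rows, the mean WT level ran from 35.7 for NOC4 to 1139 for NOP10. NOP10 (YHR072W-A), the smallest box H/ACA core protein, had 284, 166, 198 and 158 CPM in WT replicates 1 to 4, and its coding length is only 177 bases. NOC4, a partner of Nop14 in small-subunit assembly, had 81.0, 58.0, 48.7 and 49.0 CPM in the same libraries. In both genes replicate 1 was the highest WT library.

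The difference between replicate 1 and the other growth days ran through nearly all of the members. Replicate 1 held more RNA of the members than replicates 2 to 4 in every genotype. The 44 transcripts took 1.58% of ORF-T counts in WT replicate 1, against 1.17%, 1.08% and 1.14% in WT replicates 2 to 4. They took 1.83% in rrp6Δ replicate 1, against 1.22% and 1.24% in replicates 3 and 4. In rtr1Δ rrp6Δ cells they took 1.79% in replicate 1, against 1.23%, 1.10% and 1.25% in replicates 2 to 4. By edgeR's quasi-likelihood test with genotype and replicate number as terms, 44 of 44 members differed between growth days, beside 43.0% of all rows. Replicate 1 was higher than the mean of replicates 2 to 4 in 43 members (24.3% of all rows) and lower in 0 (20.4% of all rows). This replicate was singled out with earlier results of these data known. The p values and counts of this contrast therefore describe a split that was not set in advance. An unadjusted p under 0.05 was found for all 44, each of them higher, and DESeq2 called 43 higher and 0 lower. The median difference was 0.65 on the log2 scale, beside 0.02 for all ORF-T rows. In 41 of 44 members all 3 replicate 1 libraries lay above all 8 others, as they did in 6.05% of all rows and 9.78% of ORF-T rows. The 43 calls were the same in number under RLE, upper-quartile and ORF-T scaling, and 41 to 44 without any single library.

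**Figure D2:**
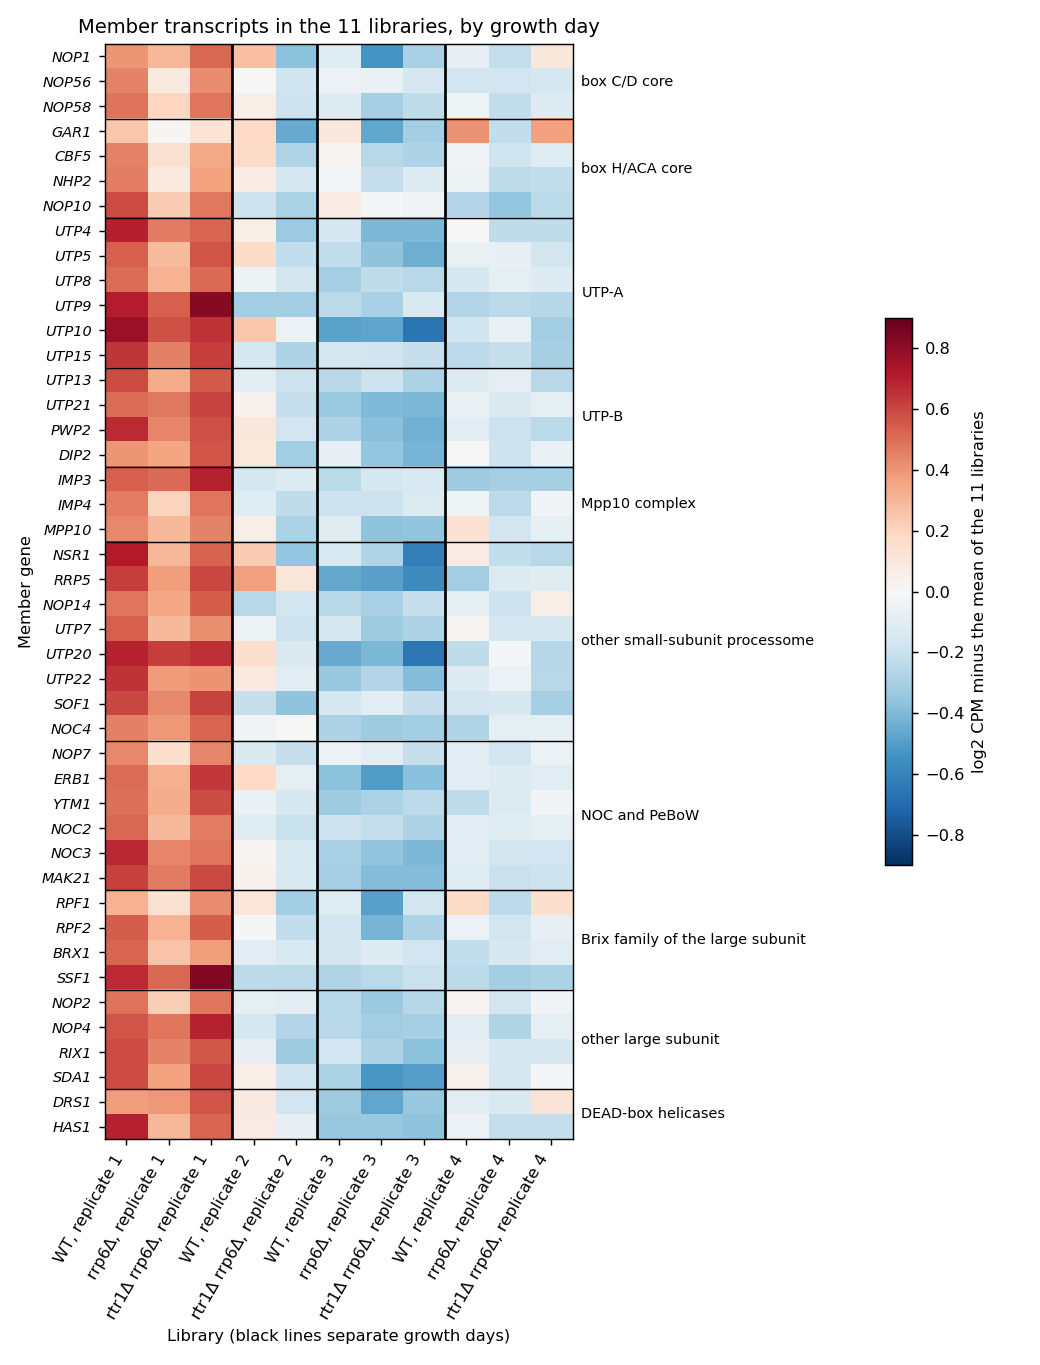
Level of the 44 members (rows, grouped by role) in the 11 libraries (columns, ordered by growth day), as log2 CPM minus the mean of the gene over the 11 libraries, with red above and blue below that mean. The 3 replicate 1 columns are red in nearly every row, and GAR1 and RPF1 break the pattern in replicate 4.

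The members with the smallest p for growth day were UTP9, SSF1, IMP3 and UTP4. UTP9 (YHR196W), a subunit of UTP-A, had 183 CPM in WT replicate 1 and 89.7, 94.3 and 92.9 CPM in WT replicates 2 to 4. It had 162, 91.0 and 94.3 CPM in rrp6Δ replicates 1, 3 and 4, and 197, 90.1, 102 and 93.6 CPM in the 4 double deletion libraries. The 3 libraries of replicate 1 lay 1.75 to 2.08 times above the mean of the other days of their genotype, while the 8 others lay between 89.7 and 102 CPM. The fitted difference was 0.97 ± 0.05 (SE) on the log2 scale, with an adjusted p of 1.13e-07.

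SSF1 (YHR066W), a Brix-domain factor of the large subunit, showed the same split. Its CPM was 171, 91.2, 89.0 and 90.9 in WT cells, 154, 90.6 and 86.9 in rrp6Δ cells and 191, 90.8, 93.3 and 88.2 in rtr1Δ rrp6Δ cells. The groups of days did not overlap, and replicate 1 was higher by 0.94 ± 0.06 log2 units (adjusted p 1.47e-07). IMP3 (YHR148W), which helps U3 pair with the pre-rRNA, had 73.3, 45.2, 42.7 and 40.4 CPM in WT cells, 71.9, 45.3 and 41.0 in rrp6Δ cells and 81.6, 46.4, 45.8 and 40.9 in rtr1Δ rrp6Δ cells. Its difference was 0.79 ± 0.05 (adjusted p 1.87e-07). UTP4 (YDR324C), a UTP-A subunit, differed by 0.78 ± 0.05 (adjusted p 2.58e-07). UTP9 and RIX1 are tandem neighbours on chromosome VIII with 237 bases between their coding regions, and both were among the 43.

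**Figure D3:**
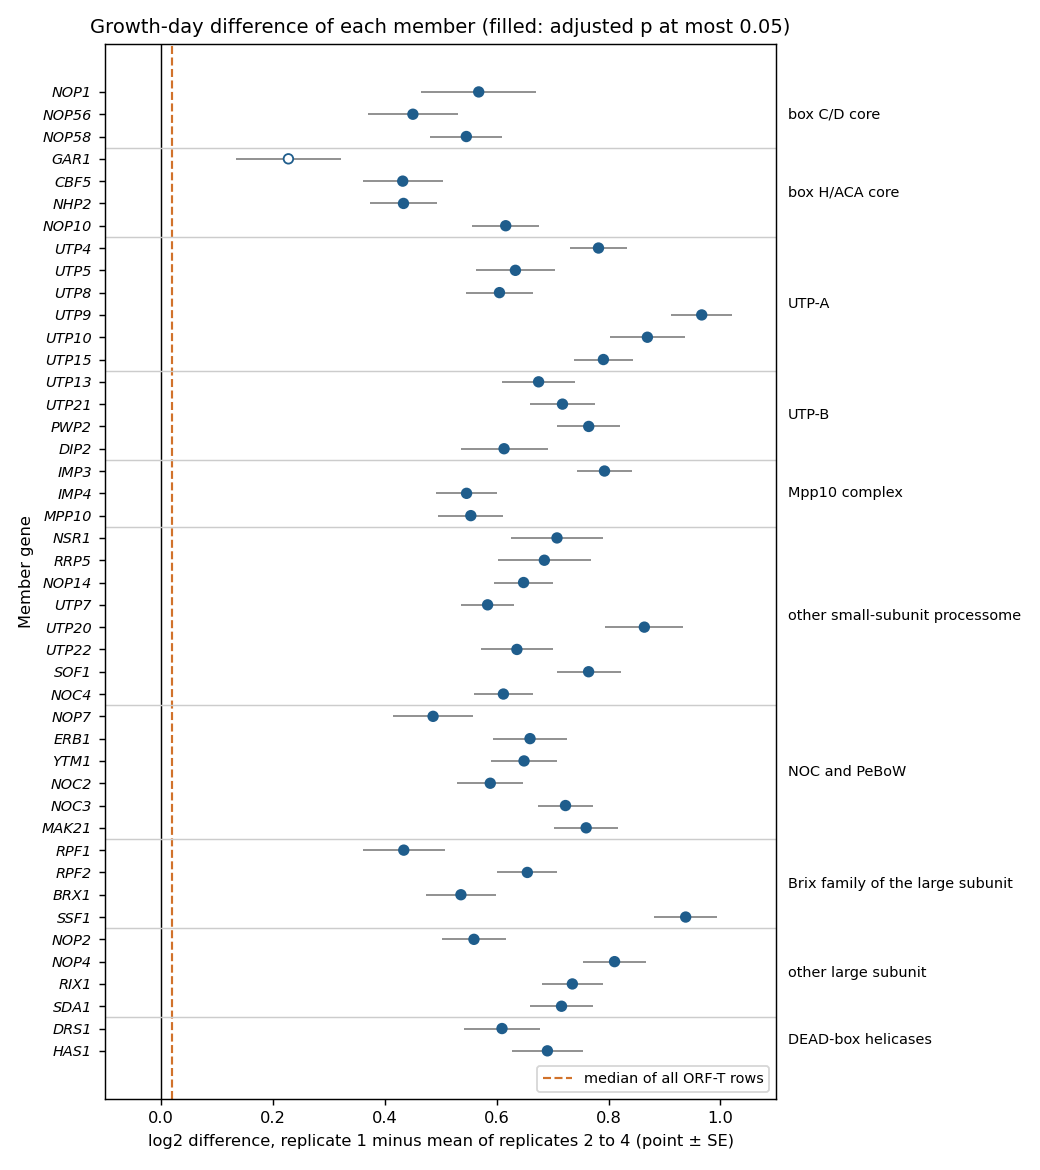
Difference between replicate 1 and the mean of replicates 2 to 4 for each member on the log2 scale (point ± SE from the edgeR fit, grouped by role), with the median of all ORF-T rows as a dashed line at 0.02. Every point lies to the right of that line, from 0.23 for GAR1 to 0.97 for UTP9, and GAR1 alone is open, that is, above an adjusted p of 0.05.

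By role, the median difference was 0.79 for the 6 UTP-A genes, 0.73 for the 4 other large-subunit factors (NOP2, NOP4, RIX1, SDA1), 0.70 for the 4 UTP-B genes and 0.67 for the 8 other small-subunit processome genes. It was 0.65 for the 6 NOC and PeBoW genes and for the 2 DEAD-box helicases, 0.60 for the 4 Brix genes, 0.55 for the 3 Mpp10 complex genes and 0.55 for the 3 box C/D core genes. The 4 box H/ACA core genes had the smallest median, 0.43. These medians rest on 2 to 8 genes each and differences between roles were not tested.

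Transcripts of the snoRNP core proteins, GAR1 apart, were also higher in replicate 1. NOP56 (YLR197W), a box C/D core protein, had 1366, 1002, 967 and 893 CPM in WT cells, 1069, 962 and 890.1 CPM in rrp6Δ cells and 1347, 886, 903 and 899 CPM in rtr1Δ rrp6Δ cells. Its replicate 1 libraries were higher by 0.45 ± 0.08 (adjusted p 0.00063). NOP58, its partner, had 716, 529, 471 and 497 CPM in WT cells, 584, 416 and 437 in rrp6Δ cells and 714, 449, 436 and 471 in rtr1Δ rrp6Δ cells, and differed by 0.55 ± 0.06. NOP1, the methyltransferase of the box C/D particle, had 328, 300.2, 231 and 237 CPM in WT cells, 307, 171 and 215 in rrp6Δ cells and 356, 193, 204 and 268 in rtr1Δ rrp6Δ cells. Its difference was 0.57 ± 0.10, and WT replicate 2 nearly reached the replicate 1 libraries. In the box H/ACA particle, NOP10 had 222, 188 and 149 CPM in rrp6Δ cells and 263, 155, 185 and 159.6 in rtr1Δ rrp6Δ cells, beside the WT values above. NOP10 differed by 0.62 ± 0.06, NHP2 by 0.43 ± 0.06 and CBF5, the pseudouridine synthase, by 0.43 ± 0.07. These values had adjusted p values of 0.00069 or below. GAR1, the remaining H/ACA core gene, differed by 0.23 ± 0.09 and was not called (adjusted p 0.064).

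Genes of the same pathway outside the list moved with the members on that day. The lists, like the members, were chosen with earlier results of these data known, so these counts are no independent result. Of all ORF-T rows 28.2% were higher in replicate 1 and 26.5% lower. Of 101 other ribosome biogenesis genes, 101 were higher in replicate 1 and 0 lower, with a median of 0.65. Of 27 RNA polymerase I and III genes, 25 were higher and 0 lower (median 0.58). Of 10 snoRNP assembly factors, such as NAF1, SHQ1 and RVB1, 7 were higher and 0 lower (median 0.37). Of 136 cytoplasmic ribosomal protein genes, 70 were higher and 0 lower, with a median of 0.21, and with ORF-T scaling 62 were higher and 1 lower. Among 11 regulators of this regulon, which include SFP1, SCH9, DOT6, TOD6 and STB3, 7 were higher and 3 lower.

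The growth-day difference was also read against the promoter cores. The median difference was 0.62 in the 34 members with both cores, 0.78 in the 6 with PAC only and 0.78 in the 3 with RRPE only, and UTP22, with neither, was at 0.64. Among ORF-T rows outside the members it was 0.50 in the 211 rows with both cores, 0.09 in 674 with PAC only, 0.17 in 262 with RRPE only and -0.02 in 4392 with neither. The share of these rows called higher in replicate 1 was 83.9%, 40.4%, 46.9% and 22.4% in the same order. The 211 rows include other ribosome biogenesis genes, so they are not a set apart from the pathway.

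Replicate 3 also differed from replicates 2 and 4, and coding length went with the difference. In WT cells 39 of 44 members were higher in replicate 2 than in replicate 3, by a median of 0.17 on the log2 scale, and in rtr1Δ rrp6Δ cells 32 were, by a median of 0.08. The medians of 5491 ORF-T rows with a mean of at least 50 counts were 0.02 and 0.0056. Replicate 3 against replicate 4 gave member medians of -0.15 in WT, -0.16 in rrp6Δ and -0.21 in rtr1Δ rrp6Δ cells, beside -0.05, -0.06 and -0.05 for those ORF-T rows. The 3 longest members, named after their values were seen, stood out. RRP5, which acts in both subunits' assembly and spans 5190 coding bases, had 959.5 CPM in WT replicate 2 and 540.4 in replicate 3. UTP10, of 5310 bases, had 437 and 264 CPM in those libraries, and UTP20, of 7482 bases, had 429 and 282 CPM. In the double deletion their log2 differences between these replicates were 0.68, 0.61 and 0.52. Across the 44 members the rank correlation of the difference between replicates 2 and 3 with coding length was 0.54 in WT cells and 0.70 in rtr1Δ rrp6Δ cells, and across the 5491 ORF-T rows it was 0.45 and 0.47. For replicate 3 against replicate 4 it was -0.46 in WT, -0.53 in rrp6Δ and -0.42 in rtr1Δ rrp6Δ cells, beside -0.26, -0.45 and -0.36 over the ORF-T rows. Replicate 2 against replicate 4 gave 0.27 in WT and 0.22 in rtr1Δ rrp6Δ cells, beside 0.23 and 0.13 over the ORF-T rows. The trend with length was thus not limited to replicate 3. For replicate 1 against the other days the rank correlation over members was 0.29 in WT, 0.49 in rrp6Δ and 0.38 in the double deletion, beside 0.10, 0.19 and 0.16 over the ORF-T rows. All points of a correlation share the same libraries, genes are not independent replicates, and the part of RNA quality in these differences was not tested.

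In rrp6Δ cells the direction of the members depended on the scaling. With TMM scaling over all rows, 17 of 44 members were lower than in WT cells (38.9% of all rows) and 0 higher (42.1% of all rows) at an adjusted p of at most 0.05. The median difference was -0.13 on the log2 scale, and that of all ORF-T rows was -0.29, of which 68.1% were lower and 8.52% higher. Relative to ORF-T rows, by TMM factors set on those rows alone, 0 members were lower (19.9% of ORF-T rows) and 21 higher (52.6% of all rows and 22.7% of ORF-T rows), with a median of 0.17. This scaling moved the median of all rows by 0.30, and the share of higher calls among all calls from 52% to 82.3%. On the first scale 19 members had an unadjusted p under 0.05, none of them above WT. DESeq2, run with its default scaling of the RLE type and not with TMM, called 34 lower and 0 higher. Its share over all rows is not given, but with RLE scaling in edgeR 79.9% of ORF-T rows and 45.9% of all rows were lower. Without the growth day in the model, edgeR called 0 members either way (24.7% of all rows lower), and 1 member had an unadjusted p under 0.05. Without rrp6Δ replicate 1 the number of lower members was 10, and the share of all rows lower in that fit is not given. In CPM, 28 members were below WT on each of the 3 shared days, as were 42.7% of all rows and 73.5% of ORF-T rows.

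The members' share of ORF-T counts was above WT on every day. It was 1.83% in rrp6Δ cells against 1.58% in WT cells on day 1, 1.22% against 1.08% on day 3 and 1.24% against 1.14% on day 4. Their share of all counts was 1.35%, 0.878% and 0.924% in rrp6Δ cells and 1.26%, 0.840% and 0.903% in WT cells on the same days. The share of all counts, before TMM scaling, was thus also above WT on each shared day. The TMM factors over all rows, which scale each library by the bulk of its rows, were 0.870 to 0.987 in WT libraries and 1.05 to 1.10 in rrp6Δ libraries.

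The largest difference belonged to GAR1 (YHR089C). It had 50.3, 47.7, 45.4 and 55.8 CPM in WT cells and 42.6, 30.6 and 36.3 CPM in rrp6Δ cells. With TMM scaling over all rows the groups thus did not overlap. In rtr1Δ rrp6Δ cells it had 46.1, 30.8, 34.2 and 54.6 CPM, which spanned both. The rrp6Δ difference was -0.53 ± 0.11 (adjusted p 0.00066), and with ORF-T scaling it was -0.23 (adjusted p 0.104). With ORF-T scaling GAR1 had 41.9 to 50.2 CPM in WT cells and 33.9 to 47.1 CPM in rrp6Δ cells, which overlap. On day 1 rrp6Δ then lay above WT. RPF1 (YHR088W), a Brix-domain factor of the large subunit, came next. It had 49.1, 42.5, 36.6 and 44.6 CPM in WT cells, 43.3, 28.1 and 33.6 in rrp6Δ cells and 52.9, 31.9, 35.2 and 43.9 in rtr1Δ rrp6Δ cells, which overlap, and within each shared day rrp6Δ lay below WT. Its difference was -0.38 ± 0.09 (adjusted p 0.0014), and -0.08 with ORF-T scaling. With that scaling RPF1 was above WT on day 1 (47.9 CPM in rrp6Δ and 41.8 in WT cells). RPF1 and GAR1 are convergent neighbours on chromosome VIII, at 281495 to 282382 and 282681 to 283298 of assembly R64, with 298 bases between their stop codons. They also had the lowest growth-day differences of their role groups.

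Among the other snoRNP core genes in rrp6Δ cells, CBF5 differed by -0.28 ± 0.08 (adjusted p 0.0088), NHP2 by -0.26 ± 0.07 (0.0043), NOP10 by -0.18 ± 0.07 (0.037), NOP1 by -0.31 ± 0.12 (0.033) and NOP58 by -0.24 ± 0.08 (0.012) with TMM scaling over all rows. NOP56 was at -0.14 ± 0.10 and did not pass (adjusted p 0.20). Thus 4 of 4 box H/ACA and 2 of 3 box C/D core genes were lower on this scale, beside 38.9% of all rows and 68.1% of ORF-T rows. With ORF-T scaling 0 of these 7 genes were called either way, and the signs of NOP56, NOP58, CBF5, NHP2 and NOP10 turned positive. NHP2 (YDL208W), which binds the H/ACA RNA, had 306, 233, 220.1 and 215 CPM in WT cells and 236, 192 and 189.8 in rrp6Δ cells. It had 286, 199, 205 and 191 CPM in rtr1Δ rrp6Δ cells. The rrp6Δ values lie below WT within each day but overlap the WT range through replicate 1. With ORF-T scaling they lay above WT within each day, by 0.0024, 0.070 and 0.072 log2 units.

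Of the processome genes, UTP4 differed by -0.26 ± 0.06 (adjusted p 0.0018) and MPP10, the scaffold of the Mpp10 complex, by -0.26 ± 0.07 (adjusted p 0.0041) in rrp6Δ cells with TMM scaling over all rows. Relative to ORF-T rows the same genes were at 0.04 and 0.04, neither called. NSR1, the yeast nucleolin-like protein, differed by -0.31 ± 0.10 (adjusted p 0.012), and by -0.01 with ORF-T scaling. By group, 1 of 6 UTP-A, 1 of 4 UTP-B, 2 of 3 Mpp10 complex, 2 of 8 other processome, 0 of 6 NOC and PeBoW, 2 of 4 Brix, 2 of 4 other large-subunit and 1 of 2 helicase genes were lower on the first scale and none higher. On that scale 38.9% of all rows and 68.1% of ORF-T rows were lower. With ORF-T scaling 4 of 6 UTP-A, 2 of 4 UTP-B, 1 of 3 Mpp10 complex, 6 of 8 other processome, 4 of 6 NOC and PeBoW, 2 of 4 Brix and 2 of 4 other large-subunit genes were higher and none lower. With this scaling 52.6% of all rows and 22.7% of ORF-T rows were higher. Differences between roles were not tested.

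**Figure D4:**
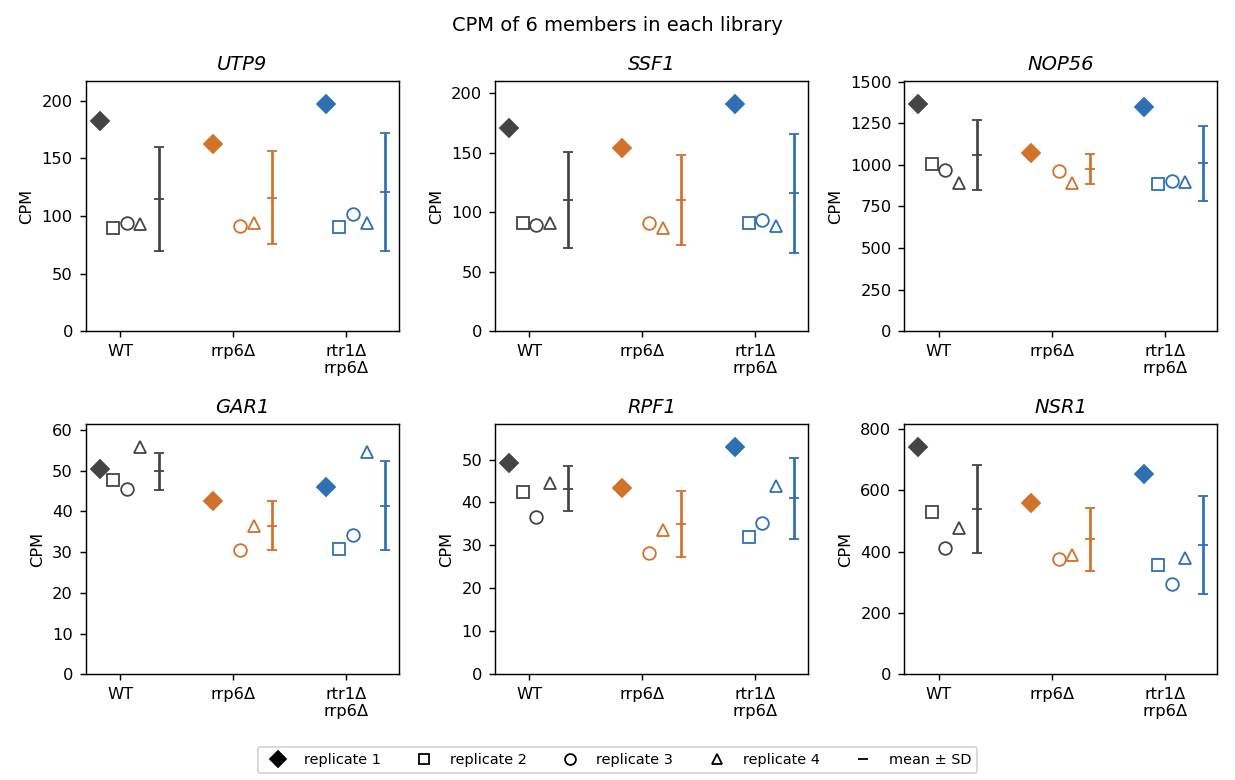
CPM (vertical axis, from 0) of 6 members in each library, by genotype on the horizontal axis and by replicate as the marker, with the mean ± SD of each genotype. Replicate 1 (filled diamonds) stands alone at the top in UTP9, SSF1 and NOP56, while in GAR1 the rrp6Δ libraries (30.6 to 42.6 CPM) lie below the WT libraries (45.4 to 55.8 CPM). The CPM shown use TMM scaling over all rows, and with ORF-T scaling these GAR1 groups overlap.

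In rtr1Δ rrp6Δ cells, too, the direction of the members turned with the scaling. With TMM scaling over all rows 12 of 44 were lower (36.3% of all rows and 60.5% of ORF-T rows). None was higher (40.5% of all rows and 9% of ORF-T rows). The median was -0.08 beside -0.22 for all ORF-T rows. Relative to ORF-T rows 0 were lower (23.4% of ORF-T rows) and 22 higher (51.1% of all rows and 24.4% of ORF-T rows), with a median of 0.14. This scaling moved the median of all rows by 0.23 and the share of higher calls among all calls from 52.8% to 78.1%. On the first scale 13 members had an unadjusted p under 0.05, none of them above WT. DESeq2, with its default scaling, called 31 lower and 0 higher. With RLE scaling in edgeR 76.7% of ORF-T rows and 46.2% of all rows were lower, and the DESeq2 shares are not given. Without the growth day in the model edgeR called 0 members (21.2% of all rows lower), and 0 had an unadjusted p under 0.05. The count moved with single libraries. It was 2 without WT replicate 2, 7 without WT replicate 3, 27 without rtr1Δ rrp6Δ replicate 1, and 2, 3 and 5 without rtr1Δ rrp6Δ replicates 2, 3 and 4. The shares of all rows called in these fits are not given. Whether the members moved more than other rows was not tested. In CPM 19 members were below WT on each of the 4 days, as were 38.7% of all rows and 64.5% of ORF-T rows.

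The 4 members with the smallest p in this comparison were UTP4, NSR1, MPP10 and CBF5. UTP4 had 211, 134, 117 and 129 CPM in WT cells, 179, 98.1 and 111 in rrp6Δ cells and 186, 103, 98.0 and 111 in rtr1Δ rrp6Δ cells. Both mutant groups lay below WT on each shared day, and the ranges overlap because replicate 1 is high in all groups. The double deletion differed from WT by -0.26 ± 0.05 (adjusted p 0.00079), and by -0.03 with ORF-T scaling. With ORF-T scaling UTP4 lay above WT on each shared day in rrp6Δ cells, and on day 1 in the double deletion. NSR1 (YGR159C) had 742, 529.8, 412 and 477 CPM in WT cells, 558, 375 and 389 in rrp6Δ cells and 655, 357, 296 and 380.3 in rtr1Δ rrp6Δ cells. Its difference was -0.38 ± 0.09 (adjusted p 0.0015), the largest of the 44 in this comparison, and -0.16 with ORF-T scaling (adjusted p 0.115).

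MPP10 (YJR002W) had 124, 95.6, 85.3 and 100.3 CPM in WT cells, 112, 71.4 and 81.6 in rrp6Δ cells and 125, 75.4, 71.8 and 86.3 in rtr1Δ rrp6Δ cells. The difference of the double deletion was -0.20 ± 0.06 (adjusted p 0.011), it held on days 2 to 4, and with ORF-T scaling it was 0.03. CBF5 (YLR175W) had 620.5, 513, 463 and 446 CPM in WT cells, 501, 384 and 402 in rrp6Δ cells and 577, 379, 376 and 422 in rtr1Δ rrp6Δ cells. Its difference was -0.23 ± 0.08 (adjusted p 0.014), and -0.0022 with ORF-T scaling. Of the other core genes GAR1 (-0.29 ± 0.10, adjusted p 0.014) and NHP2 (-0.15 ± 0.06, adjusted p 0.047) were lower on the first scale, and 0 of 3 box C/D core genes were. On that scale 60.5% of ORF-T rows were lower. With ORF-T scaling 0 of 4 box H/ACA core genes were lower and 1 was higher, and 0 of 3 box C/D core genes were called.

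**Figure D5:**
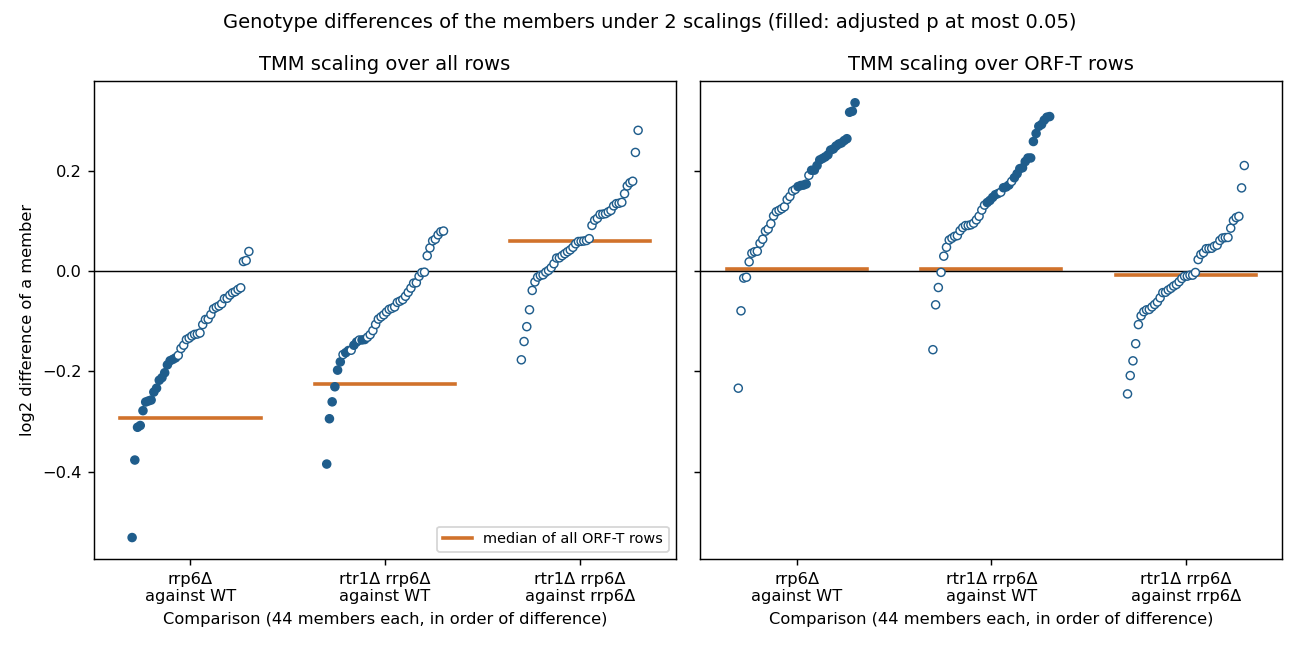
Difference of each of the 44 members on the log2 scale for 3 genotype comparisons, in order of size, with TMM scaling over all rows (left) and over ORF-T rows (right). Filled points have an adjusted p of at most 0.05, and an orange line marks the median of all ORF-T rows, which is -0.29, -0.22 and 0.06 on the left. Most members lie above that line in both comparisons with WT, the called points are lower on the left and higher on the right, and no point is filled in the third comparison.

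Between the double deletion and rrp6Δ cells no member was called. With edgeR 0 were lower (5.37% of all rows) and 0 higher (4.42% of all rows), 5 had an unadjusted p under 0.05, and DESeq2 called 2 higher and 0 lower. The median was 0.06, the same as that of all ORF-T rows. The smallest p values belonged to RPF1 (0.28 ± 0.09, adjusted p 0.056), NOP14 (0.18 ± 0.06, adjusted p 0.093), IMP4 (0.17 ± 0.07, adjusted p 0.12) and NOP2 (0.15 ± 0.07, adjusted p 0.17). NOP14, which pairs with Noc4, had 250.4, 151, 151 and 169.6 CPM in WT cells, 227, 146 and 157 in rrp6Δ cells and 261, 159.8, 155 and 186 in rtr1Δ rrp6Δ cells, ranges that overlap. IMP4, a subunit of the Mpp10 complex, had 100.1, 67.6, 63.9 and 71.0 CPM in WT cells, 83.9, 63.6 and 61.9 in rrp6Δ cells and 102, 62.2, 67.1 and 71.6 in rtr1Δ rrp6Δ cells. NOP2, an rRNA cytosine methyltransferase of the large subunit, had 405, 273, 242 and 292 CPM in WT cells, 336, 229 and 257 in rrp6Δ cells and 402, 269, 241 and 282 in rtr1Δ rrp6Δ cells. In all 3 genes the double deletion lay above rrp6Δ on each of the 3 shared days. Within days the median over members was 0.21 in replicate 1, -0.01 in replicate 3 and 0.02 in replicate 4, and TMM factors in replicate 1 were 1.10 for rrp6Δ and 0.934 for the double deletion. Without all replicate 1 libraries, a choice made after seeing the data, the median was 0.0077. The part of the replicate 1 scaling in these values was not tested.

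The other gene lists of the pathway are given for the comparisons with WT, which share the WT libraries, with no test between lists. In rrp6Δ cells 52 of 101 other ribosome biogenesis genes were lower and 1 higher (median -0.18), and with ORF-T scaling 1 was lower and 30 higher (median 0.12). For the double deletion these counts were 23 lower (22.8%) and 4 higher (median -0.09), and 1 lower and 46 higher (45.5%, median 0.14). The ORF-T shares for this strain were 60.5% lower and 9% higher, changing to 23.4% and 24.4% with ORF-T scaling. For rrp6Δ against WT the ORF-T shares were 68.1% lower and 8.52% higher, changing to 19.9% and 22.7% with ORF-T scaling. Of 136 cytoplasmic ribosomal protein genes 91 (66.9%, near the ORF-T share) were lower and 2 higher in rrp6Δ cells (median -0.26). With ORF-T scaling 4 were lower and 7 higher (median 0.04). Between the double deletion and rrp6Δ cells 4 of the 101 genes were higher (6.72% of ORF-T rows) and 0 lower (1.94% of ORF-T rows). Of 10 snoRNP assembly factors 4 were lower and 0 higher in rrp6Δ cells, against 0 and 5 with ORF-T scaling. Among the 11 regulators 9 were lower and 1 higher in rrp6Δ cells (median -0.31), and 0 were lower and 3 higher with ORF-T scaling (median -0.01). In rtr1Δ rrp6Δ cells 9 of them were lower and 1 higher (median -0.35), and 5 lower and 2 higher with ORF-T scaling (median -0.12).

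Antisense transcripts were listed for 3 of the 44 members, NOP7, UTP5 and UTP21. The study kept antisense annotations that changed in rrp6Δ cells, so their direction is no independent result. The antisense row of UTP5 had 0.590 to 0.910 CPM in the WT libraries, 3.29 to 4.46 CPM with RRP6 deleted and 2.55 to 4.39 CPM with both genes deleted. In the same order, that of UTP21 had 0.141 to 0.623, 2.06 to 3.51 and 1.76 to 3.71 CPM. The antisense row of NOP7 had 0.647 to 2.39, 0.662 to 1.23 and 0.804 to 1.89 CPM. Each stayed far below its sense transcript, and none of these 3 sense transcripts was called lower or higher in either mutant with TMM scaling over all rows.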

How the data were processed

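Total RNA from 11 libraries (4 WT, 3 rrp6Δ, 4 rtr1Δ rrp6Δ) had been depleted of rRNA and made into strand-specific libraries. The authors aligned reads to sacCer3 with STAR 2.5.2b and deposited read counts per transcript from featureCounts of Subread 1.5.0. The values were whole numbers with differing totals and were analysed as counts, although the table's legend calls them normalized. The authors' fold changes and FDR values were not used, and neither was 1 per-sample column whose genotype was unclear. Spike-in RNA was not used here.

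Counts were fitted in R 4.3.3 with edgeR 4.0.16 with genotype and replicate number as terms of 1 quasi-likelihood model, after filterByExpr (0 rows removed) and with TMM scaling over all rows. p values were adjusted over all 12670 rows by the Benjamini-Hochberg method, and a call needed an adjusted p of at most 0.05. The study's methods name edgeR and no covariate. Replicate number was kept because replicates were grown on different days, and deviations from group means correlated at 0.40 to 0.89 in the 10 same-numbered pairs and at -0.78 to 0.53 in 30 others. DESeq2 1.42.0 with its default scaling, other scalings and filters, a fit without replicate number and leaving out libraries were alternatives. Named members were 8 core genes, the 4 with the smallest p per test, and the highest and lowest per kilobase. The fit was also run on simulated counts in which a small set of rows was changed up and down alike. That simulation held no shift common to many rows, so it cannot speak to the choice of scaling. Symbols and coordinates came from RefSeq R64, which matched 5586 of 5836 ORF-T rows, and all 44 members. The members, the lists and the contrast of replicate 1 with the other days were chosen with earlier results of these data known. Figures used Python and matplotlib.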

Additional observations from a re-analysis of the deposited data

Results flagged for a closer look

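In groups of 4 libraries, the gap between the highest or the lowest library and the next was taken as a share of the group's range. The larger of these shares exceeded Dixon's 95% limit in 10 of 38 groups tested, and chance flags about 1 in 20 groups. UTP9, SSF1, IMP3 and UTP4, which give 7 of the 10, were named for their small p between growth days, so the count cannot be read against that rate. In each of the 10, replicate 1 was the library apart and was the highest. In WT cells the share was 0.951 for UTP9, 0.974 for SSF1 and 0.852 for IMP3. In rtr1Δ rrp6Δ cells it was 0.964 for NOP56, 0.874 for NOP58, 0.850 for NHP2, 0.857 for UTP4, 0.892 for UTP9, 0.951 for SSF1 and 0.867 for IMP3.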

How the results depend on the processing

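The growth-day calls (44 members between days, 43 higher in replicate 1) kept their direction in every setting run, with 40 to 44 and 41 to 44 members without single libraries. The genotype counts did not. For rrp6Δ against WT, 17 lower became 35 with RLE, 1 with upper-quartile and 0 with ORF-T scaling, 11 with a mean of at least 50 counts, 34 with DESeq2, 0 without the replicate block and 0 with a 1.5-fold minimum, and 10 to 24 without single libraries. The 35 are 79.5% of members, beside 79.9% of ORF-T rows and 45.9% of all rows, and the 1 is 2.27%, beside 36.8% and 21%. The 0 higher became 3 with upper-quartile and 21 with ORF-T scaling. For rtr1Δ rrp6Δ against WT, 12 lower became 30, 2, 0, 5, 31, 0 and 0 in the same order, and 2 to 27 without single libraries, and 0 higher became 6 and 22. The 30 are 68.2% of members, beside 76.7% of ORF-T rows and 46.2% of all rows, and the 2 with upper-quartile scaling are 4.55%, beside 39.4% and 23.7%. For the double deletion against rrp6Δ, 0 higher became 1 with RLE, 2 with DESeq2 and 0 to 1 without single libraries. The medians against WT (-0.13 and -0.084) moved to -0.25 and -0.20 with RLE, 0.050 and 0.038 with upper-quartile and 0.17 and 0.14 with ORF-T scaling. The median between the mutants (0.060) was -0.0098 with ORF-T scaling. Without single libraries the 3 medians ran from -0.20 to -0.090, -0.19 to -0.051 and -0.0099 to 0.079. In rrp6Δ cells ORF-T scaling turned NOP56 (0.16), NOP58 (0.056), CBF5 (0.019), NHP2 (0.036), NOP10 (0.12), UTP4 (0.039) and MPP10 (0.040) positive, and upper-quartile scaling NOP56 (0.044) and NOP10 (0.0052). In the double deletion ORF-T scaling turned MPP10 (0.030) and NHP2 (0.081) positive. RLE and upper-quartile scaling moved the median of all rows by -0.12 and 0.18 in rrp6Δ cells. The share of higher calls was 46.4% and 68.9% for rrp6Δ, 45.4% and 65.2% for the double deletion, and between the mutants 45.1% changed to 23.2% with upper-quartile and 20.4% with ORF-T scaling. Leaving out all replicate 1 libraries, a choice made after seeing the data, gave 13 and 15 lower members against WT. Shares of all rows are not given for the fits that left out libraries. They are also not given for DESeq2, the filter at 50 counts and the 1.5-fold minimum. These counts can thus not be set against the rest of the rows. The cause of these changes was not tested.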
